A study of Mus musculus with 8 samples.

Results

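The genes described here are Foxp3, Il10, Il2ra, Ikzf2, Ikzf4, Ctla4, Icos, Lrrc32 and Tgfb1, which are commonly used to recognise regulatory T cells and their suppressive functions. They were chosen by name, with earlier results of these data known, and make up 9 of the 37411 genes in the count table. All 9 also passed the filter on low counts, which kept 10000 genes for testing.

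Regulatory T cells are CD4+ T cells that restrain other T cells, and in the intestine they limit inflammation driven by effector T cells. Foxp3 is the transcription factor that defines the lineage. Such cells compete for IL-2 through the receptor chain encoded by Il2ra, remove costimulatory ligands through CTLA-4, activate TGF-beta through the surface protein encoded by Lrrc32, and release IL-10. Several of these genes are shared with activated effector T cells, above all Ctla4, Icos, Il2ra and Il10.

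RNA-seq was done on congenically marked CD4+ effector T cells, about 10000 per sample, which were sorted 6 weeks after their transfer into C57BL/6 Rag1-/- mice, hosts that lack T and B cells of their own but keep innate immune cells. The transferred cells carried the retrovirus LMPd with a short hairpin against Mdr1 (shMdr1), the xenobiotic transporter encoded by Abcb1a, or with a control hairpin against CD8 (shCD8), and a hairpin lowers a transcript without deleting its gene. Cells came from small intestine lamina propria or from spleen, and hosts were Slc10a2 +/+ (Asbt+/+) or Slc10a2 -/- (Asbt-/-), that is, with or without the ileal bile acid transporter Asbt. Each of the 8 combinations had 1 library, which gives 4 libraries for each tissue, hairpin and host genotype. All groups shared the Rag1-/- host, the transfer and the 6 weeks, and no untransferred cells were among the 8 libraries. The hairpin was read from the sample titles, because the retrovirus field names shMdr1 for all 8 samples. Nothing in the labels says that libraries came from separate animals, and the p-values therefore reflect only how these libraries scatter, part of which may be technical.

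Libraries held 1685225 to 2767105 counts. Values are given as CPM, that is, counts brought to one common library total after scaling by TMM, a method that balances most genes between libraries, and 1 count was worth 0.394 to 0.642 CPM. The 14 CD4 T cell identity genes, such as Cd3e, Cd4 and Cd28, had counts in every library, which fits the label. Abcb1a, the target of shMdr1, was lower in CPM with shMdr1 in 3 of 4 pairs of libraries alike in tissue and host. The spleen pair from Asbt+/+ hosts stood at 18.7 against 40.8 CPM (45 and 95 counts, shMdr1 first). The small intestine pair from Asbt-/- hosts stood at 40.4 against 91.0 CPM (102 and 228 counts). The gap was smaller for the spleen pair from Asbt-/- hosts, at 22.2 against 29.7 CPM (36 and 62 counts). Whether counting error alone could give that smaller gap was not tested. The small intestine pair from Asbt+/+ hosts had 23 Abcb1a counts (14.8 CPM) where labelled shMdr1 and 21 counts (8.28 CPM) where labelled shCD8. On these few counts Abcb1a was not lower where labelled shMdr1, and this pair is always named here as labelled. Cd8a, the target of the control hairpin, had 0 counts where labelled shCD8 and 150 where labelled shMdr1 in that pair. It had 7 and 31 counts in spleen of Asbt+/+ hosts, shCD8 first. In Asbt-/- hosts it had 57 and 70 counts in small intestine and 0 in both spleen libraries. Cd8b1 had 0 counts in both libraries of the pair labelled small intestine Asbt+/+. Elsewhere it had 0 to 8 counts, more with shCD8 in each pair. The part of the hairpins in these counts was not tested. The library labelled shCD8 of the small intestine Asbt+/+ pair had counts for 8456 genes, against 11345 to 13184 in the other 7. The library labelled shMdr1 of that pair had the lowest total. Mitochondrial genes took 26.8% of counts in shMdr1 spleen of Asbt-/- hosts, 18.3% in the library labelled shMdr1 small intestine Asbt+/+, 17.6% in shCD8 spleen of Asbt-/- hosts and 6.63 to 8.62% in the other 5. For Foxp3, Il10, Ctla4, Icos, Tgfb1, Ikzf4 and Lrrc32, values without both small intestine Asbt+/+ libraries are given as well.

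Promoter sequence is shown for 3 of the genes because Ctla4 and Il2ra were among the genes whose small intestine libraries all stood above all spleen libraries, and Foxp3 was the gene whose shMdr1 libraries all stood below all shCD8 libraries. The sequences are the 250 bases before the transcription start in the RefSeq promoter table, build GRCm38.p6, all on the + strand, 5′ to 3′. Their positions are chr1:60908775-60909024 for Ctla4, chr2:11642542-11642791 for Il2ra and chrX:7580233-7580482 for the second of the 2 Foxp3 start sites. Capitals mark matches to the motifs searched.
Ctla4: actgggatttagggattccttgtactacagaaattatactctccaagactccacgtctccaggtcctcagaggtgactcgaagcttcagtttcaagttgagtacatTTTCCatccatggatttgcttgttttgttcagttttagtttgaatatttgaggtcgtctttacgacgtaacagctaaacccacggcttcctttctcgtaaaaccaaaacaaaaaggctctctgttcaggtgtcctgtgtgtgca
Il2ra: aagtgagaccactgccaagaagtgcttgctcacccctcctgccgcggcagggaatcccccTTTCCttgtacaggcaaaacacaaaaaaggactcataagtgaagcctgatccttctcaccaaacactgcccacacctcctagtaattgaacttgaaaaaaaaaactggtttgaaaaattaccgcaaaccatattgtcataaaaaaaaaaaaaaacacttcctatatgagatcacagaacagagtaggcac
Foxp3: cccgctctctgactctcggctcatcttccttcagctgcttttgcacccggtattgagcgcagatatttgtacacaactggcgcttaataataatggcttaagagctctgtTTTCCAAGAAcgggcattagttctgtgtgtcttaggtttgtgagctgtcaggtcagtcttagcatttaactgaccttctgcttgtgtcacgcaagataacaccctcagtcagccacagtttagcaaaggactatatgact

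The motifs, searched on both strands, were the NFAT core GGAAA, the AP-1 site TGANTCA, the NR4A monomer site AAAGGTCA, the CRE TGACGTCA and the STAT site TTCNNNGAA. NFAT and AP-1 carry T cell receptor signals, and STAT5 carries the IL-2 signal. Each of the 3 windows held 1 NFAT core, printed as TTTCC because it lies on the opposite strand, at position -144 from the start for Ctla4, -190 for Il2ra and -140 for Foxp3. The Foxp3 window also held a STAT match, TTCCAAGAA at -139, which overlaps the NFAT core. None of the 3 held the AP-1, NR4A or CRE letters. Among 32851 RefSeq promoters, 55.6% of windows of this length held the NFAT core, 7.02% the STAT site, 6.75% the AP-1 site, 1.55% the CRE and 1.34% the NR4A site. These matches describe letters only and do not show binding. The table held 4 of the 9 genes, in 5 windows. The Tgfb1 window held none of the 5 motifs. The other Foxp3 window, not printed, held 1 NFAT core at -205 and no STAT site, so the STAT match belongs to the second start site only.

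Among the transcription factors, Foxp3 was low in counts and uneven. In small intestine it stood at 44.6 CPM (113 counts) in the library labelled shCD8 and at 0 in the library labelled shMdr1 from Asbt+/+ hosts, and at 40.3 CPM (101 counts) with shCD8 and 22.6 CPM (57 counts) with shMdr1 in Asbt-/- hosts. In spleen it stood at 28.8 CPM with shCD8 and 4.99 CPM (12 counts) with shMdr1 in Asbt+/+ hosts, and at 23.0 and 6.16 CPM (10 counts) in Asbt-/- hosts. The 4 shCD8 libraries thus lay above the 4 shMdr1 libraries, by a narrow margin between shCD8 spleen of Asbt-/- hosts at 23.0 CPM and shMdr1 small intestine of Asbt-/- hosts at 22.6 CPM, whose counting intervals overlap (17.0 to 30.5 and 17.1 to 29.3 CPM, 95% exact Poisson). The 0 allows up to 1.93 CPM, the worth of 3 counts in that library. Intervals and this limit cover counting error only, since the reads carry no molecular identifiers.

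Ikzf2, which encodes Helios, a factor common in thymus-derived regulatory T cells and also found in activated T cells, had counts in every library. Its small intestine levels were 98.6 CPM (labelled shCD8) and 74.5 CPM (labelled shMdr1) in Asbt+/+ hosts, and at 43.9 with shCD8 and 77.3 CPM with shMdr1 in Asbt-/- hosts. Spleen levels were 158 and 85.3 CPM in Asbt+/+ hosts and at 84.3 and 36.3 CPM in Asbt-/- hosts, shCD8 first. The highest and the lowest library were both from spleen, and the groups overlapped for every factor.

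Ikzf4, which encodes Eos, a partner of Foxp3 in gene silencing, was near the limit of counting in most libraries. Its counts were 1 (labelled shCD8) and 2 (labelled shMdr1) in small intestine of Asbt+/+ hosts, and 53 with shCD8 and 0 with shMdr1 in Asbt-/- hosts. In spleen they were 23 and 6 in Asbt+/+ hosts and 14 and 1 in Asbt-/- hosts, shCD8 first. The library of shCD8 small intestine of Asbt-/- hosts stood alone at 21.1 CPM, and the next library, shCD8 spleen of Asbt+/+ hosts, stood at 9.89 CPM.

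Among the receptors, Il2ra encodes the IL-2 receptor alpha chain CD25, which gives the receptor its high affinity. In small intestine Il2ra stood at 61.1 CPM (labelled shCD8) and 66.8 CPM (labelled shMdr1) in Asbt+/+ hosts, and at 66.6 and 54.7 CPM in Asbt-/- hosts, shCD8 first. In spleen it stood at 46.9 and 12.9 CPM in Asbt+/+ hosts and at 25.4 and 4.31 CPM (7 counts) in Asbt-/- hosts. The 4 small intestine libraries were close to each other, and all lay above the 4 spleen libraries, which spanned a wide range.

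Ctla4, the inhibitory receptor that competes with CD28 for CD80 and CD86, was well covered, with 362 to 4183 counts per library. Small intestine levels were 1649.6 CPM (labelled shCD8) and 1006 CPM (labelled shMdr1) in Asbt+/+ hosts, and at 1272 and 968 CPM in Asbt-/- hosts, shCD8 first. Those of spleen were 451 and 280.1 CPM in Asbt+/+ hosts and at 443 and 223 CPM in Asbt-/- hosts. Small intestine and spleen did not overlap, and shCD8 was the higher library of each pair.

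Icos, a costimulatory receptor of the CD28 family that sustains regulatory and helper T cells, had 388 to 2195 counts per library. For small intestine the values were 697 CPM (labelled shCD8) and 587 CPM (labelled shMdr1) in Asbt+/+ hosts, and at 876 and 599.9 CPM in Asbt-/- hosts, shCD8 first. For spleen they were 259 and 169 CPM in Asbt+/+ hosts and at 279 and 239 CPM in Asbt-/- hosts. The tissues did not overlap, and shCD8 was again the higher library of each pair. Cd28, Ctla4 and Icos are neighbouring genes on chromosome 1, and Cd28, the activating receptor, averaged 345 CPM in small intestine and 329 CPM in spleen (log2 fold change 0.05 ± 0.27 (SE), adjusted p = 0.976, edgeR).

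In the TGF-beta arm, Lrrc32 encodes GARP, which holds latent TGF-beta on the surface of regulatory T cells. Lrrc32 had no count in either small intestine library of Asbt+/+ hosts, and 13 counts with shCD8 and 18 with shMdr1 in small intestine of Asbt-/- hosts. In spleen it had 7 and 3 counts in Asbt+/+ hosts and 9 and 1 in Asbt-/- hosts, shCD8 first. The 0 counts allow up to 1.18 CPM in the library labelled shCD8 and 1.93 CPM in that labelled shMdr1, and the highest of the 8 libraries reached 7.13 CPM.

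Tgfb1, the cytokine itself, which supports the formation of regulatory T cells in the gut, ran opposite to the other genes between hairpins. Small intestine had 15.8 CPM (40 counts, labelled shCD8) and 36.6 CPM (57 counts, labelled shMdr1) in Asbt+/+ hosts, and at 12.8 and 25.8 CPM in Asbt-/- hosts, shCD8 first. Spleen had 3.87 CPM (9 counts) and 8.74 CPM (21 counts) in Asbt+/+ hosts and at 7.66 and 11.1 CPM in Asbt-/- hosts. All small intestine libraries lay above all spleen libraries, and shMdr1 was the higher library of each pair.

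Il10, the gene for the anti-inflammatory cytokine IL-10, which effector cells such as Th1 cells can also make, resembled Foxp3 in its lowest library. In small intestine it stood at 61.5 CPM (156 counts) in the library labelled shCD8 and 0.64 CPM (1 count) in that labelled shMdr1 from Asbt+/+ hosts, and at 39.9 and 35.3 CPM (100 and 89 counts) in Asbt-/- hosts, shCD8 first. In spleen it stood at 22.4 and 7.91 CPM in Asbt+/+ hosts and at 9.58 and 6.16 CPM in Asbt-/- hosts. Each pair had its higher value with shCD8, but shMdr1 small intestine of Asbt-/- hosts lay above both shCD8 spleen libraries, so the hairpin groups overlapped.

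**Figure D1:**
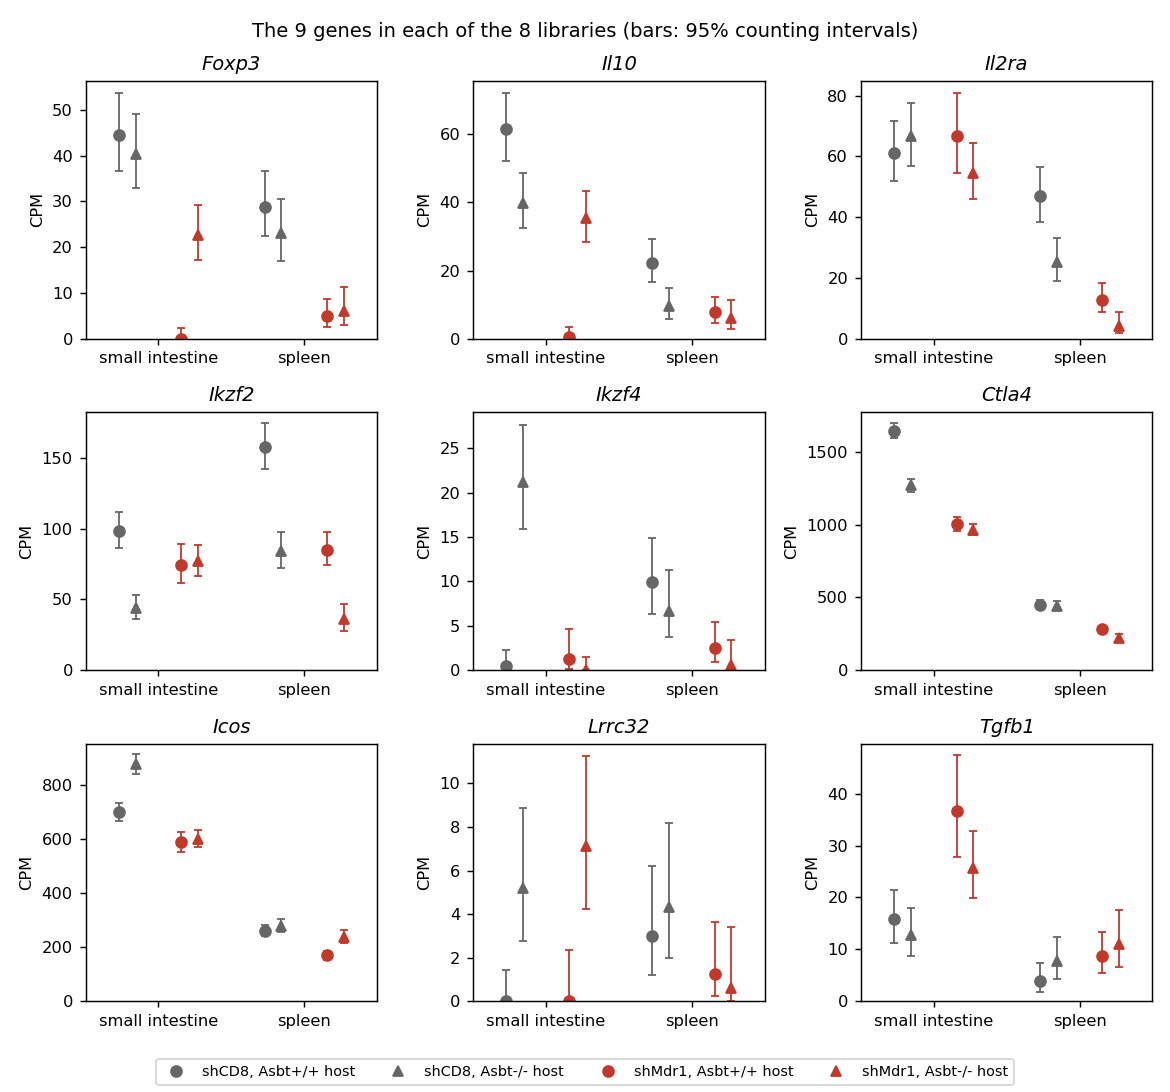
CPM (linear axes from 0, a different range in each panel) of the 9 genes in each of the 8 libraries, by tissue, with hairpin as colour and host as symbol; bars are 95% exact Poisson counting intervals. For Ctla4 and Icos all small intestine points lie above all spleen points, and for Foxp3 all shCD8 points (23.0 to 44.6 CPM) lie above all shMdr1 points (0 to 22.6 CPM).

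Small intestine and spleen differed most clearly in Ctla4 and Icos, both of which rose in small intestine. Ctla4 averaged 1224 ± 315 CPM (SD, n = 4) in small intestine and 349 ± 115 CPM (SD, n = 4) in spleen, 3.58-fold higher (log2 fold change 1.84 ± 0.24 (SE), adjusted p = 0.00625, edgeR quasi-likelihood test over all 10000 genes). Icos averaged 689.8 ± 133 CPM and 236.7 ± 47.8 CPM, 2.92-fold higher (log2 1.55 ± 0.23, adjusted p = 0.0131, same test). Both were higher in 4 of 4 pairs of libraries alike in hairpin and host. Of the 9 genes, 2 passed at an adjusted p of 0.05, both upward, against 0.62% of all tested genes in either direction and 0.51% upward. At an unadjusted p of 0.05 they were 3 of 9, against 8.45% of all tested genes.

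Il2ra averaged 62.3 ± 5.72 CPM in small intestine and 22.4 ± 18.5 CPM in spleen (SD, n = 4 each), a log2 fold change of 1.87 ± 0.54 that did not pass with edgeR (adjusted p = 0.271). It passed with the DESeq2 Wald test (adjusted p = 0.0323), and with edgeR once the library labelled shCD8 small intestine Asbt+/+ was left out (log2 2.31, adjusted p = 0.0237). Tgfb1 stood at a log2 fold change of 1.495 ± 0.693 (adjusted p = 0.604), with 22.7 ± 10.8 CPM in small intestine and 7.84 ± 3.01 CPM in spleen, and at 0.97 without both small intestine Asbt+/+ libraries. Ctla4, Icos, Il2ra and Tgfb1 were thus the 4 of 9 genes that were higher in small intestine in 4 of 4 pairs, against 8.11% of all tested genes. They were also the 4 whose small intestine libraries all lay above all spleen libraries, against 3.39%.

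Il10 stood at 34.3 ± 25.2 CPM in small intestine and 11.5 ± 7.37 CPM in spleen (log2 1.47 ± 0.92, adjusted p = 0.742), and was higher in small intestine in 3 of 4 pairs. Foxp3 stood at 26.9 ± 20.3 and 15.7 ± 12.0 CPM (log2 0.68 ± 0.92, adjusted p = 0.896), also higher in 3 of 4 pairs. For both genes the exception was the library labelled shMdr1 small intestine Asbt+/+. Without both small intestine Asbt+/+ libraries the log2 fold change was 2.31 for Il10 and 1.36 for Foxp3. Without shMdr1 small intestine of Asbt-/- hosts it was 0.45 for Il10 and -0.37 for Foxp3. Il10 stood at 0.86 and Foxp3 at 0.19 without shCD8 spleen of Asbt-/- hosts, and Il10 at 0.98 and Foxp3 at 0.31 without the library labelled shCD8 small intestine Asbt+/+. Ikzf2 (-0.17 ± 0.37), Ikzf4 (-0.34 ± 1.56) and Lrrc32 (-0.74 ± 1.92) had log2 fold changes below 0 with errors larger than the values. The median of the 9 genes was 1.47, beside -0.17 over all tested genes.

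The call for Ctla4 was lost without the library labelled shMdr1 small intestine Asbt+/+ (adjusted p = 0.0535), without shCD8 spleen Asbt-/- (0.0511) and without both small intestine Asbt+/+ libraries (0.063), with a log2 fold change of 1.56 to 1.92 over 17 alternatives. The call for Icos rested on more libraries: it was lost without both small intestine Asbt+/+ libraries (adjusted p = 0.0977), when libraries were scaled to CD4 T cell identity counts (0.087), and in 5 of the 8 fits that left out 1 library: without the library labelled shMdr1 small intestine Asbt+/+ (0.0803), shCD8 spleen Asbt+/+ (0.0773), shMdr1 spleen Asbt+/+ (0.072), shCD8 spleen Asbt-/- (0.112) or shMdr1 spleen Asbt-/- (0.0529).

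**Figure D2:**
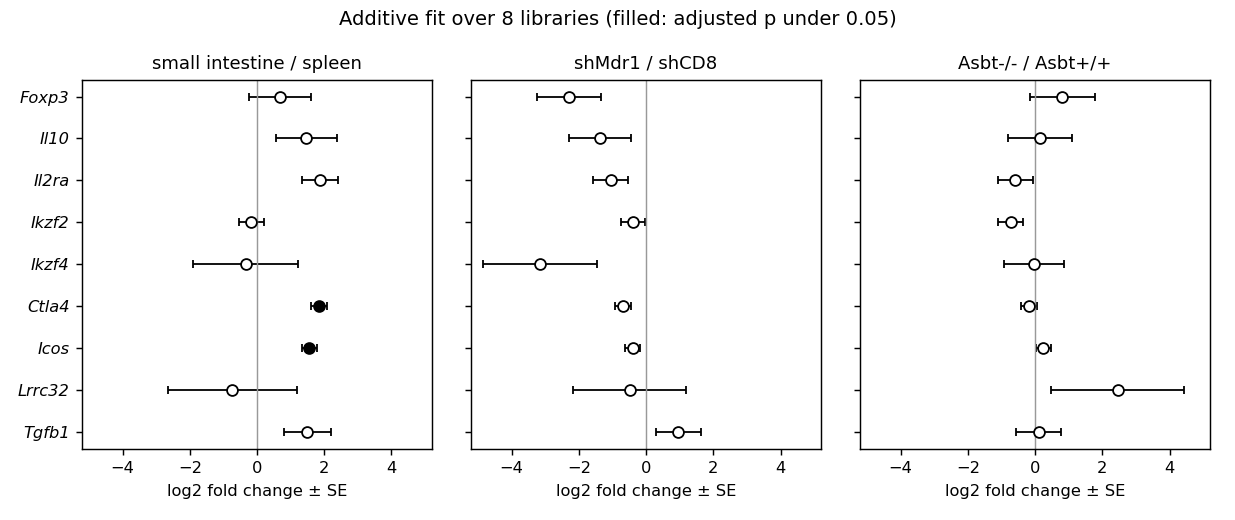
Log2 fold changes (points) with SE (bars) of the 9 genes for tissue, hairpin and host in the additive fit of all 8 libraries; filled points passed an adjusted p of 0.05. Filled points are Ctla4 (1.84) and Icos (1.55) in the tissue panel, and none is filled for hairpin or host.

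With shMdr1, 8 of the 9 genes stood lower than with shCD8 and Tgfb1 stood higher, but none passed the test. The edgeR test called 0 of the 9 genes at an adjusted p of 0.05, as did DESeq2 and limma-voom, and edgeR called 0% of all tested genes. At an unadjusted p of 0.05 it gave 2 of the 9, Foxp3 and Ctla4, both lower, against 2.99% of all tested genes in either direction and 1.41% lower. The median log2 fold change of the 9 was -0.70, beside 0.09 over all tested genes.

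Foxp3 averaged 34.2 ± 9.99 CPM under shCD8 and 8.43 ± 9.80 CPM under shMdr1 (SD, n = 4 each), a log2 fold change of -2.30 ± 0.96 (SE; adjusted p = 0.999, edgeR). Groups that do not overlap in this direction made up 1.34% of all tested genes. In spleen Foxp3 was 5.77-fold lower (95% exact interval from counts 3.09 to 11.7) in Asbt+/+ hosts and 3.73-fold lower (1.87 to 8.28) in Asbt-/- hosts. In small intestine it was 1.78-fold lower (1.28 to 2.51) in Asbt-/- hosts. In the pair labelled Asbt+/+ Foxp3 was 23.1-fold lower with the 0 taken at its limit of 3 counts. That value leaves out the counting error of the 113 counts labelled shCD8, so it is not a bound like the intervals. Without both small intestine Asbt+/+ libraries, the pair in which Abcb1a was not lower where labelled shMdr1, the log2 fold change of Foxp3 was -1.69. Over all 17 alternatives it ranged from -3.37 to -1.66.

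The 0 for Foxp3 stands in a library with other missing genes. Of 5144 genes with at least 10 counts in every other library, 76 (1.48%) had at most 1 count there, and Foxp3 and Il10 were among them. In the library labelled shCD8 small intestine Asbt+/+ this was so for 773 of 6014 genes (12.9%), and in the remaining 6 libraries for 0 to 18 genes. None of the 9 was among the 773, but genes below 10 counts in any other library could not be. That excluded Foxp3 and Il10, and also Ikzf4 and Lrrc32, which had 1 and 0 counts in the library labelled shCD8 small intestine Asbt+/+. The part of such losses in the Foxp3 and Il10 values was not tested.

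Ctla4 averaged 954 ± 605 CPM under shCD8 and 619 ± 425 CPM under shMdr1, a log2 fold change of -0.70 ± 0.23 (adjusted p = 0.999, edgeR) in the fit that accounts for tissue. Its pairs differed in size but not in direction: it was 1.64-fold lower (1.55 to 1.74) in small intestine as labelled and 1.61-fold (1.46 to 1.78) in spleen of Asbt+/+ hosts, and 1.31-fold (1.25 to 1.39) in small intestine and 1.99-fold (1.76 to 2.25) in spleen of Asbt-/- hosts. Icos stood at a log2 fold change of -0.40 ± 0.22, with pairs 1.17-fold to 1.53-fold lower. Il10 stood at -1.38 ± 0.92, with 12.5 ± 15.5 CPM under shMdr1 and 33.3 ± 22.5 CPM under shCD8. Its pairs were far apart, from 1.13-fold lower (0.842 to 1.52) in small intestine of Asbt-/- hosts to 95.8-fold lower (17.0 to 3809.6) in the pair labelled Asbt+/+, and without both small intestine Asbt+/+ libraries its log2 fold change was -0.75.

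Foxp3, Ctla4, Icos and Il10 were the 4 of 9 genes lower with shMdr1 in 4 of 4 pairs, against 7.36% of all tested genes. Tgfb1 was the 1 gene higher in 4 of 4 (20.5 ± 13.1 CPM with shMdr1, 10.02 ± 5.29 CPM with shCD8, log2 0.96 ± 0.68), against 7.68%. Il2ra (-1.06 ± 0.53), Ikzf2 (-0.39 ± 0.37) and Ikzf4 (-3.15 ± 1.70) were lower in 3 of 4 pairs. Lrrc32 (-0.49 ± 1.68) was lower in 2 pairs, higher in 1 and at 0 in both libraries of the pair labelled small intestine Asbt+/+. Without that pair the values were -3.69 for Ikzf4, -0.96 for Lrrc32, 0.90 for Tgfb1 and -0.46 for Icos.

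**Figure D3:**
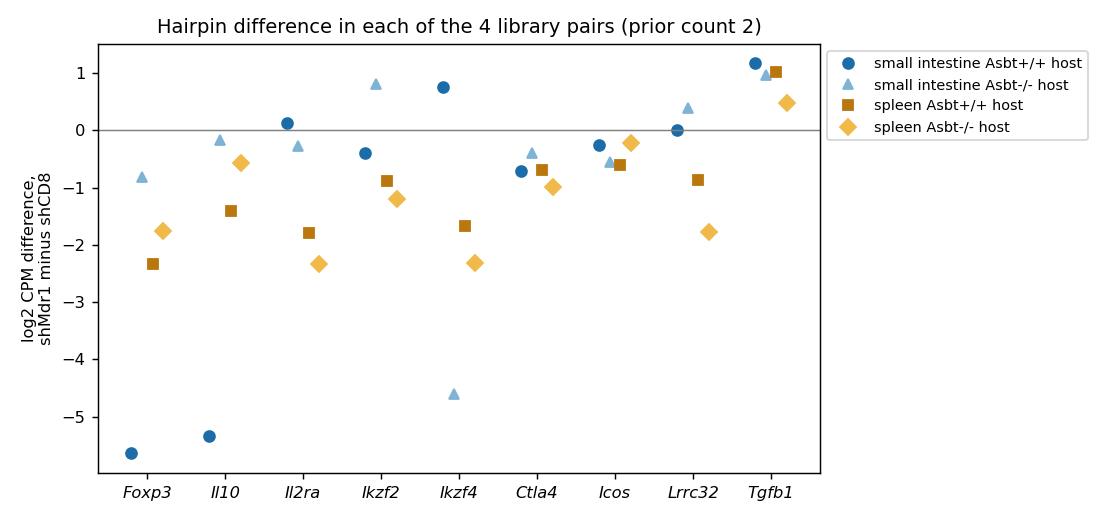
Difference in log2 CPM (prior count 2) between the shMdr1 and the shCD8 library of each of the 4 pairs alike in tissue and host, as labelled, for the 9 genes; each point is 1 library against 1. Foxp3, Il10, Ctla4 and Icos lie below 0 in all 4 pairs and Tgfb1 above 0 in all 4, while Foxp3 (-5.64) and Il10 (-5.33) have their lowest points in the small intestine Asbt+/+ pair.

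Between hosts with and without Asbt, none of the 9 genes passed (edgeR, DESeq2 and limma-voom each called 0 of 9; 0% of all tested genes were called by edgeR), and none had an unadjusted p under 0.05, against 2.71% of all tested genes. The median log2 fold change of Asbt-/- over Asbt+/+ hosts was 0.11 for the 9 genes and 0.11 for all tested genes. Ikzf2 was lower in Asbt-/- hosts in 3 of 4 pairs, at 60.4 ± 23.9 CPM against 104 ± 37.4 CPM (log2 -0.73 ± 0.36, adjusted p = 0.996). Icos was higher in Asbt-/- hosts in 4 of 4 pairs (log2 0.24 ± 0.22), against 8.5% of all tested genes, and Ctla4 was lower in 4 of 4 (-0.19 ± 0.23), against 5.19%. Foxp3 stood at 0.81 ± 0.96, Il10 at 0.15 ± 0.95, Il2ra at -0.59 ± 0.51, Ikzf4 at -0.03 ± 0.89, Lrrc32 at 2.46 ± 1.97 and Tgfb1 at 0.11 ± 0.67. Without both small intestine Asbt+/+ libraries, where Lrrc32 was at 0, its value was 0.10, and those of Foxp3 and Il10 were -0.093 and -0.86.

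Whether an effect differed between levels of another factor was tested directly, with few residual degrees of freedom (2 or 3). None of the 9 genes passed for hairpin by tissue, host by tissue or hairpin by host with edgeR, DESeq2 or limma-voom, where edgeR called 0% of all tested genes in each. At an unadjusted p of 0.05, Il2ra was the 1 of 9 for hairpin by tissue, against 1.7% of all tested genes. Its hairpin effect on the log2 scale was 2.09 ± 0.81 higher in small intestine, where the hairpins had similar levels, than in spleen, where both shMdr1 libraries were lower (adjusted p = 1). For host by tissue and hairpin by host the unadjusted counts were 0 of 9, against 4.31% and 1.19% of all tested genes. For Foxp3 the difference of the hairpin effect between tissues was -1.03 ± 2.35 and between hosts 2.45 ± 1.85.

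RNA of other cells also differed between libraries. In bulk samples, fewer cells of a type and less RNA per cell cannot be told apart, so a lower Foxp3 level does not say which of these changed. Summed markers of monocytes, macrophages and dendritic cells, which can make Il10 and Tgfb1, ranged from 574 to 1153 CPM in small intestine and from 186 to 512 CPM in spleen, with 9 to 14 of their 16 genes detected. They ranged from 199 to 1153 CPM with shCD8 and from 186 to 720 CPM with shMdr1. Much of these sums came from few genes. Cd74 had 137 to 476 CPM in small intestine and 64.6 to 74.5 CPM in spleen, and Lyz2 had 110 to 287 and 50.5 to 291 CPM. C1qb reached 52.5 CPM, while Csf1r reached 11.8 and Itgam 5.13 CPM at most. The 8 markers of NK and innate lymphoid cells summed to 542 to 769 CPM in small intestine and 290 to 494 CPM in spleen, but Rora, which T cells also express, made up 482 to 623 CPM of this in small intestine and 229 to 399 CPM in spleen. Of the 8, Ncr1, which defines NK cells, was at 0 in all 8 libraries. Others had counts: Eomes had 9.23 to 74.9 CPM, and Klrk1 reached 74.1, Il1rl1 47.9 and Kit 40.2 CPM. Il5 reached 8.62 and Klrb1c 5.54 CPM at most. Platelet and megakaryocyte markers, which mark a rich source of Tgfb1, summed to 1.93 to 61.5 CPM in small intestine and 4.31 to 21.5 CPM in spleen. The highest sums, 61.5 CPM with shCD8 and 33.3 CPM with shMdr1 in small intestine of Asbt-/- hosts, were Pf4 alone. The other genes of this list had no count in these libraries. Intestinal epithelium markers (14 genes, 1 to 11 detected) summed to more with shMdr1 in all 4 pairs. The sums were 888 against 306 CPM in the small intestine pair labelled Asbt+/+, whose shMdr1 library had no Foxp3 count. They were 93.1 against 55.9 CPM in small intestine of Asbt-/- hosts and 186 against 61.1 CPM in spleen of Asbt+/+ hosts. In spleen of Asbt-/- hosts they were 41.9 against 21.5 CPM, where the shMdr1 value was Lgals4 alone. Single markers did not all follow the sums. In small intestine of Asbt-/- hosts Defa24 (11.5 against 25.5 CPM) and Lgals4 (4.75 against 12.8 CPM) were lower with shMdr1. Tff2 (25.8 against 0.399 CPM) and Tff3 (31.3 against 7.98 CPM) were higher there. Neutrophil markers were higher in spleen, with 10.7 to 193 CPM in small intestine and 837 to 7447 CPM in spleen, and red cell markers reached 41629 CPM in shMdr1 spleen of Asbt-/- hosts. The part of these cells in the tissue and hairpin differences was not tested.

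Foxp3 and Ctla4 were also set against T cell RNA. Per 1000 counts of the 14 CD4 T cell identity genes, Foxp3 had 4.2 and 5.69 counts in the small intestine shCD8 libraries and 3.48 and 3.00 in the spleen shCD8 libraries, Asbt+/+ first. With shMdr1 it had 0 and 2.05 in small intestine and 0.57 and 0.76 in spleen, so all shMdr1 libraries stayed below all shCD8 libraries. The 14 genes were not themselves even between hairpins. Cd3g was higher with shMdr1 in 4 of 4 pairs (log2 0.82 ± 0.30), against 7.68% of all tested genes. In small intestine of Asbt-/- hosts Cd3d and Cd3g gave 8689 and 8456 of 27824 identity counts with shMdr1, and 2169 and 2900 of 17762 with shCD8. Part of the wider Foxp3 gap may thus lie in the denominator. Ctla4 had 155 and 179 counts per 1000 in the small intestine shCD8 libraries, 86.6 and 87.8 with shMdr1, and 27.5 to 57.8 in spleen. Scaling all libraries this way moved the median of all tested genes from 0.09 to -0.16 between hairpins and from -0.17 to -0.43 between tissues on the log2 scale.

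The wider pathways were followed through 6 gene lists that hold none of the 9 genes. In small intestine 8 of their genes rose, against 0.51% of all tested genes called upward, and none passed between hairpins or hosts in any list. All 8 also passed without the library labelled shCD8 small intestine Asbt+/+, and most calls were lost without 1 of the others. Among 17 tested of 20 genes for receptors and effector molecules of regulatory T cells, 3 rose in small intestine, where 0.51% of all tested genes were called upward: Tnfrsf9, the costimulatory receptor 4-1BB (5.60-fold, adjusted p = 0.0186), Areg, the tissue repair factor amphiregulin (5.07-fold, adjusted p = 0.0198), and Gzmb, the cytotoxic protease granzyme B (3.76-fold, adjusted p = 0.017; edgeR for all genes of this paragraph). Effector T cells express these genes too. When 1 library was left out, each passed in 2 of 8 fits, with adjusted p up to 0.113 for Tnfrsf9 and 0.117 for Gzmb (both without shCD8 spleen Asbt-/-) and 0.118 for Areg (without shCD8 small intestine Asbt-/-). The list had a median log2 fold change of 1.11 for tissue and -0.66 for hairpin, beside -0.17 and 0.09 over all tested genes, with 15 of 17 below 0 for hairpin. Fgl2, a secreted suppressive factor (-1.46 ± 0.49), and Nt5e, the ectoenzyme CD73 (-1.32 ± 0.54), led, both with an adjusted p of 0.999 (edgeR). Over 17 alternatives Fgl2 ranged from -1.90 to -1.08 and Nt5e from -1.67 to -0.63. Nt5e had 337 counts where labelled shCD8 and 24 where labelled shMdr1 in small intestine of Asbt+/+ hosts, against 112 and 93 in Asbt-/- hosts.

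Of 15 tested genes of the TGF-beta list of 22, 3 rose in small intestine, again beside 0.51% of all tested genes: Furin, the protease that cleaves the TGF-beta precursor (2.93-fold, adjusted p = 0.0314, edgeR), and Skil (4.29-fold, adjusted p = 0.017) and Tgif1 (3.00-fold, adjusted p = 0.0373), which encode repressors of Smad signalling. When 1 library was left out, Furin and Skil passed in 2 of 8 fits and Tgif1 in 1, with adjusted p up to 0.181 for Furin (without shCD8 spleen Asbt+/+), 0.102 for Skil (without the library labelled shMdr1 small intestine Asbt+/+) and 0.219 for Tgif1 (without shCD8 spleen Asbt-/-). The list's median was 0.18 for tissue and -0.48 for hairpin, where Smad7, the inhibitory Smad, stood at -0.48 ± 0.27 and Ski, another Smad repressor, at -0.54 ± 0.32. Among 24 tested partners and regulators of Foxp3, 1 rose in small intestine, against 0.51% of all tested genes. This was Rel, the NF-kappaB subunit c-Rel that acts at the Foxp3 locus (2.57-fold, adjusted p = 0.0269, edgeR). Rel passed in 1 of 8 fits without 1 library, with adjusted p up to 0.155 (without shCD8 spleen Asbt-/-). The list medians were -0.06 for tissue and -0.04 for hairpin. Gata3, a factor of Th2 and intestinal regulatory T cells, stood at -1.13 ± 0.41 with shMdr1, and Cbfb, the partner of Runx factors, at -0.50 ± 0.26. Over 17 alternatives Gata3 ranged from -1.40 to -0.58. It had 586 counts where labelled shCD8 and 41 where labelled shMdr1 in small intestine of Asbt+/+ hosts, against 389 and 315 in Asbt-/- hosts.

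Among 19 regulators of Il10 and IL-10 receptor genes, 1 rose in small intestine, again against 0.51% of all tested genes. This was Il21r, the receptor for IL-21 (3.70-fold, adjusted p = 0.0231, edgeR). It passed in 1 of 8 fits without 1 library, with adjusted p up to 0.113 (without shMdr1 spleen Asbt+/+). The medians were 0.36 for tissue and -0.08 for hairpin, where Il27ra, the receptor for the Il10-inducing cytokine IL-27, stood at -0.44 ± 0.26 and Batf, an AP-1 factor, at 0.50 ± 0.31. None of the 13 genes of IL-2 signalling passed between tissues. Cish, a STAT5 target that restrains signalling, stood at 1.27 ± 0.30 (adjusted p = 0.128, edgeR) and Il4ra, the receptor for IL-4, at 1.90 ± 0.65 (adjusted p = 0.396), with a list median of -0.10. Between hairpins the median was 0.12, with Socs2, another feedback inhibitor, at -0.83 ± 0.46 and the kinase gene Jak3 at 0.79 ± 0.62. None of the 12 genes of the CD28 family and its ligands passed between tissues, with a median of 0.35. Pdcd1lg2, a ligand of PD-1, stood at 1.28 ± 0.41 (adjusted p = 0.339) and Cd40lg, the ligand of CD40, at 0.72 ± 0.31 (adjusted p = 0.569). Between hairpins the CD28 list had a median of -0.19, with Cd86, a ligand of CTLA-4, at -1.46 ± 0.82 and Cd274, another ligand of PD-1, at 0.61 ± 0.65.

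**Figure D4:**
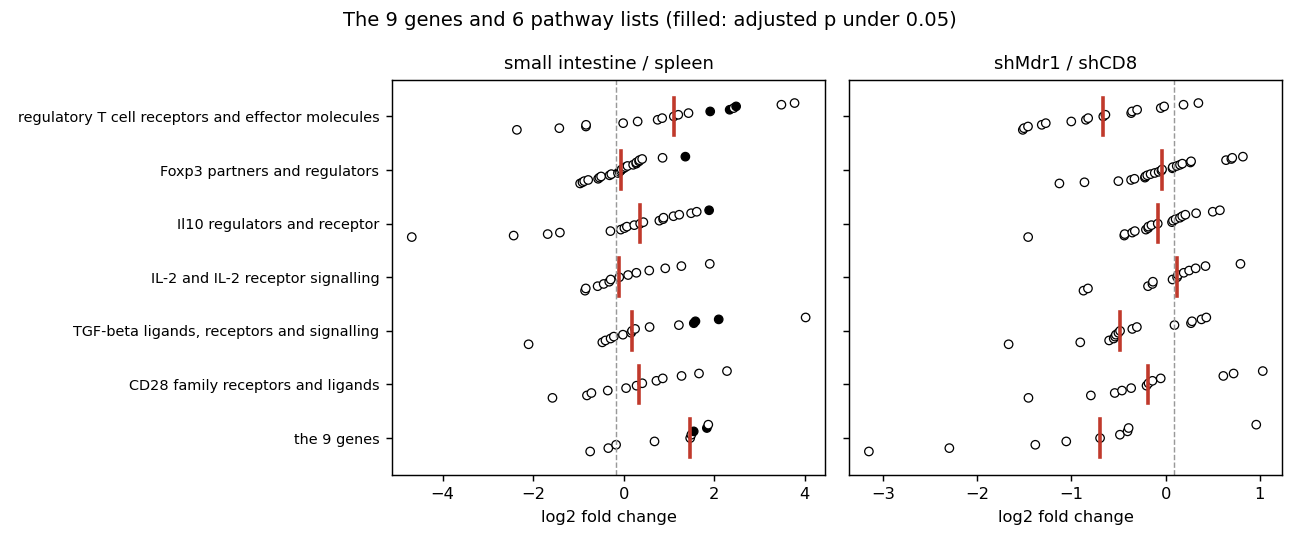
Log2 fold changes of the tested genes of 6 pathway lists and of the 9 genes, for tissue (left) and hairpin (right); circles are genes, filled where the adjusted p was under 0.05, red bars are list medians and the dashed line is the median of all tested genes (-0.17 and 0.09). Filled circles occur for tissue only, and the median of the 9 genes is 1.47 for tissue and -0.70 for hairpin.

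The genes whose profile over the 8 libraries was most like that of a given gene were found by the root mean square difference of centred log2 CPM among 6991 genes with a mean of at least 10 CPM. For Foxp3 the nearest was Il1rl1, the IL-33 receptor ST2, at 0.49, followed by Zdhhc13 at 0.56 and Hdhd2 at 0.72. Il1rl1 is on the list of NK and innate lymphoid markers as well as on that of regulatory T cell receptors and effector molecules. Il1rl1 had 100 counts in the library labelled shCD8 and 1 in that labelled shMdr1 for small intestine from Asbt+/+ hosts, against 120 and 96 for Asbt-/- hosts. In spleen Il1rl1 had 91 and 39 counts in Asbt+/+ hosts and 95 and 21 in Asbt-/- hosts, shCD8 first. For Il10 the nearest were Zdhhc13 at 0.66, Igsf23 at 0.67 and Champ1 at 0.70. All 5 genes named for Foxp3 and Il10 had 0 to 2 counts in the library labelled shMdr1 small intestine Asbt+/+, which weighs heavily in this measure. For Ctla4 the nearest were Btg3 at 0.23, Mxd1 at 0.27 and Il21r at 0.29. Btg3 was low in spleen, with 6 to 19 counts per library, while Mxd1 had 29 to 309 and Il21r 37 to 354 counts over the 8 libraries.

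Beside Foxp3, a transcription factor gene of an inflammatory lineage had groups that ran the other way between hairpins. Tbx21, which encodes the Th1 factor T-bet, averaged 36.4 ± 9.35 CPM with shMdr1 and 15.8 ± 3.54 CPM with shCD8 (log2 1.22 ± 0.50, adjusted p = 0.999, edgeR). Il17a stood at a log2 fold change of -1.22 ± 0.26 and Ifng at 0.11 ± 0.42. Like Foxp3, Il17a was lower with shMdr1 in every pair (-1.54 to -0.97 in log2 CPM), as were 7.36% of all tested genes. Ifng was higher with shMdr1 in Asbt+/+ hosts (1.30 in small intestine as labelled, 0.90 in spleen). It was lower in Asbt-/- hosts (-0.78 in small intestine, -0.94 in spleen). These comparisons use the same libraries as those of Foxp3 and Il10.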

How the data were processed

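The deposited table holds raw read counts per gene, as whole numbers, in 1 column per library. Per the labels' protocols, cDNA was made with the SMART-Seq v4 ultra low input kit and libraries with a NEBNext Ultra II kit, which carry no molecular identifiers. The submitters' processing notes name TopHat, HTSeq and DESeq2 and the mouse build mm9. Versions, the role of each tool, the annotation and strandedness were not given in the sources used here. Reads of overlapping genes therefore cannot be assigned with certainty. Those overlapping Foxp3 in GENCODE vM21 and present in the table (Ppp1r3f, Ccdc22 and Gm36995) had 4, 0 and 6 counts in all.

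Of 37411 genes, 17570 had a count and filterByExpr kept 10000 (99.5% of counts). Counts were fitted with the edgeR 4.0.16 quasi-likelihood test (R 4.3.3, TMM) in an additive model of tissue, hairpin and host over 8 libraries with 4 residual degrees of freedom. Interactions were fitted with 2 (by tissue) or 3 (hairpin by host) residual degrees of freedom. P-values were adjusted by Benjamini-Hochberg over all tested genes at 0.05. An SE is the absolute log2 fold change over the root of the F statistic. Log2 CPM used a prior count of 2. The pipeline was tested on simulated data.

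The 9 genes and the lists were chosen with earlier results of these data known. From each list, genes that passed were named, otherwise the 2 with the smallest p. Abcb1a, Cd8a, Cd8b1, Cd28 and single marker genes, such as Cd3e, Cd4 and Ncr1, were named as checks or context, outside that rule. Results of 2 further genes are not reported here. Of the list genes, Folr4 and Lrrc33 were not matched in the table. Alternatives were DESeq2 size factors, no filter, DESeq2 1.42.0, limma-voom (limma 3.58.1), no covariates, a block for matched library pairs, leaving out libraries, leaving out hemoglobin, mitochondrial and Rn18s-rs5 counts, a prior count of 10 and, added after seeing the data, scaling to CD4 T cell identity counts.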

Additional observations from a re-analysis of the deposited data

Results flagged for a closer look

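Ikzf4 stood at 21.1 CPM (53 counts) in shCD8 small intestine of Asbt-/- hosts, far from the other 3 small intestine libraries, which lay between 0 and 1.28 CPM. Its gap to the nearest of them was 0.939 of the whole range, above Dixon's critical value for 4 libraries. It was the 1 such value among 54 groups of 4 libraries examined for the 9 genes, and chance alone gives about 1 in 20.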

How the results depend on the processing

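The count of genes called between tissues, 2 of 9, was 0 without both small intestine Asbt+/+ libraries and 1 (Ctla4) with libraries scaled to CD4 T cell identity counts. It was 3 with the DESeq2 Wald test and 0 to 3 when 1 library was left out. The hairpin by tissue and host by tissue counts, 0 of 9, became 0 to 3 and 0 to 2 when 1 library was left out, in fits that left 1 residual degree of freedom and called up to 29.9% and 33.8% of all genes. A block for matched library pairs changed none of the counts of 2, 0 and 0 for tissue, hairpin and host. Of 453 values of single genes under the alternatives, 408 kept direction and call, 33 reversed, 2 gained and 10 lost a call, and 17 of 27 gene and factor combinations never reversed. No paired analysis was possible by replicate number because the labels give none.

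With limma-voom the host values were -0.25 for Il10, 0.30 for Ikzf4 and -0.17 for Tgfb1. Without covariates they were -0.0254 for Il10, 1.01 for Ikzf4 and -0.17 for Tgfb1, and the tissue values were 0.21 for Ikzf4 and 0.42 for Lrrc32. Without both small intestine Asbt+/+ libraries the tissue values were 0.14 for Ikzf2, 0.93 for Ikzf4 and 1.64 for Lrrc32, the host values -0.093 for Foxp3 and -0.86 for Il10, and the hairpin value -0.040 for Cd274. With identity scaling the host values were 0.21 for Ikzf4 and 0.023 for Ctla4. With 1 library left out, tissue values ranged from -0.37 to 1.20 for Foxp3, -0.57 to 0.064 for Ikzf2, -2.77 to 0.47 for Ikzf4 and -2.39 to 0.62 for Lrrc32. Hairpin values ranged from -1.12 to 0.55 for Lrrc32, and host values from -0.64 to 0.88 for Il10, -1.39 to 0.75 for Ikzf4 and -0.11 to 0.30 for Tgfb1. The cause was not tested. Lrrc32 and Ikzf4 had at most 18 and 53 counts in a library, so depth limits what can be seen of them.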
